A study of Capra hircus with 6 samples.

Results

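The tumour necrosis factor (TNF) superfamily is a set of ligands, receptors and intracellular adaptors through which cells exchange signals of inflammation, survival and death. The 56 genes described here are the rows of the 2 expression tables, out of 16262 with a usable symbol, that carry a TNFSF, TNFRSF or TRAF symbol or that of a TNF-α induced protein (TNFAIP1, TNFAIP2, TNFAIP3, TNFAIP8 and its paralogs), together with 18 genes named singly for their place in the pathway, such as TNF, FAS, CD40, RIPK1 and the kinases of the IKK and TAK1 complexes. By role they were 14 ligands, 5 receptors with a death domain, 11 other receptors, 2 decoy receptors, 7 TRAF adaptors, 10 further adaptors and kinases, and 7 TNF-α induced proteins. The messenger RNA of cultured goat (Capra hircus) adipose mesenchymal stem cells was sequenced, which are fat-tissue stromal cells able to form fat cells, and every library was labelled as adipogenic differentiation. The control group, of genotype WT, and the group overexpressing TAZ held 3 libraries each. The study asked how TAZ, the coactivator of transcription that WWTR1 encodes and the Hippo pathway restrains, acts on fat cell formation. Its title names TNF-α, but no sample label states a treatment with a cytokine, the vector or promoter that drives TAZ, whether the overexpressing line was 1 clone, or the time of harvest.

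As background, most TNF superfamily ligands are made as trimeric membrane proteins that can be shed from the cell, and each binds one or a few receptors. Receptors with a death domain recruit adaptors such as TRADD and FADD, through which caspase-8 or the kinase RIPK1 is engaged, and most other receptors bind TRAF proteins directly. Both routes lead to the TAK1 complex (MAP3K7 with TAB1, TAB2 or TAB3) and the IKK complex (CHUK, IKBKB and IKBKG), which release NF-κB, and NF-κB in turn induces inhibitors of the pathway such as TNFAIP3. In fat tissue, TNF-α is known as a cytokine that inhibits fat cell formation and promotes lipolysis.

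WWTR1 itself stood at 30.2, 29.9 and 35.9 FPKM in the control libraries and 84.6, 118 and 84.2 FPKM in the TAZ libraries, listed here and below in the order of replicates 1, 2 and 3, so every TAZ library was above every control. Library totals were 33871396 to 37705644 reads, and 1 FPKM (a value scaled to gene length and library size) stood for 104.5 reads in a tested gene of median length. All 11 stromal markers on the list passed the filter on low values, with a summed level of 24590 to 26060 FPKM in the controls against 23850 to 26130 FPKM with TAZ. VIM and the collagens made up most of that sum, and of the 11 markers 4 rose, 3 fell and 4 did not pass. Of 8 markers of mature fat cells only 2 passed the filter, CIDEC at 18.3 ± 1.31 against 17.8 ± 1.29 FPKM and LIPE, which rose from 1.01 ± 0.115 to 2.13 ± 0.111 FPKM. PTPRC, which defines leukocytes, and KDR, an endothelial receptor, were listed at 0 in all 6 libraries, and the epithelial markers summed to at most 1.69 FPKM in any library. The 6 pericyte markers summed to 34.5 to 45.1 FPKM in the controls and to 39.0 to 50.4 FPKM with TAZ. Only 2 of them passed the filter. CSPG4 stood at 25.7 ± 4.56 against 25.6 ± 5.58 FPKM, and NOTCH3 rose from 12.45 ± 1.14 to 17.4 ± 0.631 FPKM. The 13 measured leukocyte markers summed to 16.0 to 19.4 FPKM in the controls and to 29.3 to 29.8 FPKM with TAZ. CD14, named like the other single markers after its values were seen, was the highest of them, and without it the sums were 7.8 to 8.5 FPKM and 4.96 to 5.58 FPKM.

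Of the 56 members, 37 reached the filter, which asks for 1 FPKM in 3 or more of the 6 libraries, and 19 did not. Among the 37, limma called 16 higher and 3 lower in the TAZ libraries at an adjusted p under 0.05, and 18 did not pass. Over all 10750 genes tested, 37.9% were called, 15.7% higher and 22.1% lower. Median-ratio scaling turned the balance over all genes, to 2030 higher and 1784 lower from 1693 and 2381, and called 17 members higher and 2 lower. On the scale of log2(FPKM + 1), which shrinks changes of low genes, 8 of the members that rose were at least 2-fold higher, against 3.53% of all tested genes, and 0 were at least 2-fold lower, against 0.995%. By the ratio of mean FPKM, TNF (4.42 times) and FAS (2.02 times) also passed 2-fold and TNFRSF13C stood at 0.421 times the control level. For 20 of the 37, no TAZ library fell inside the range of the controls or the reverse, against 48.4% of all tested genes. The members' median log2 fold change was 0.19, beside -0.05 over all tested genes. These counts describe the set and are no independent evidence, because 6 of the members that rose (TNF, TNFSF10, TNFSF13B, TNFSF15, TNFAIP2 and TNFAIP3) were under 1 FPKM in every control and passed the filter through the TAZ libraries alone. With no filter, 16 of the 55 members above 0 were called higher and 3 lower, against 10.9% and 14.3% of all genes. The equal counts do not hold the same genes. TNFRSF1B, TRAF1 and TNFRSF6B lost their calls, and TNFRSF4, TNFRSF8 and TNFRSF11A, all low genes, were called instead. Log2 fold changes below are TAZ minus control on that scale, while ratios are of mean FPKM with nothing added. Group values are mean ± SD of 3 libraries.

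**Figure D1:**
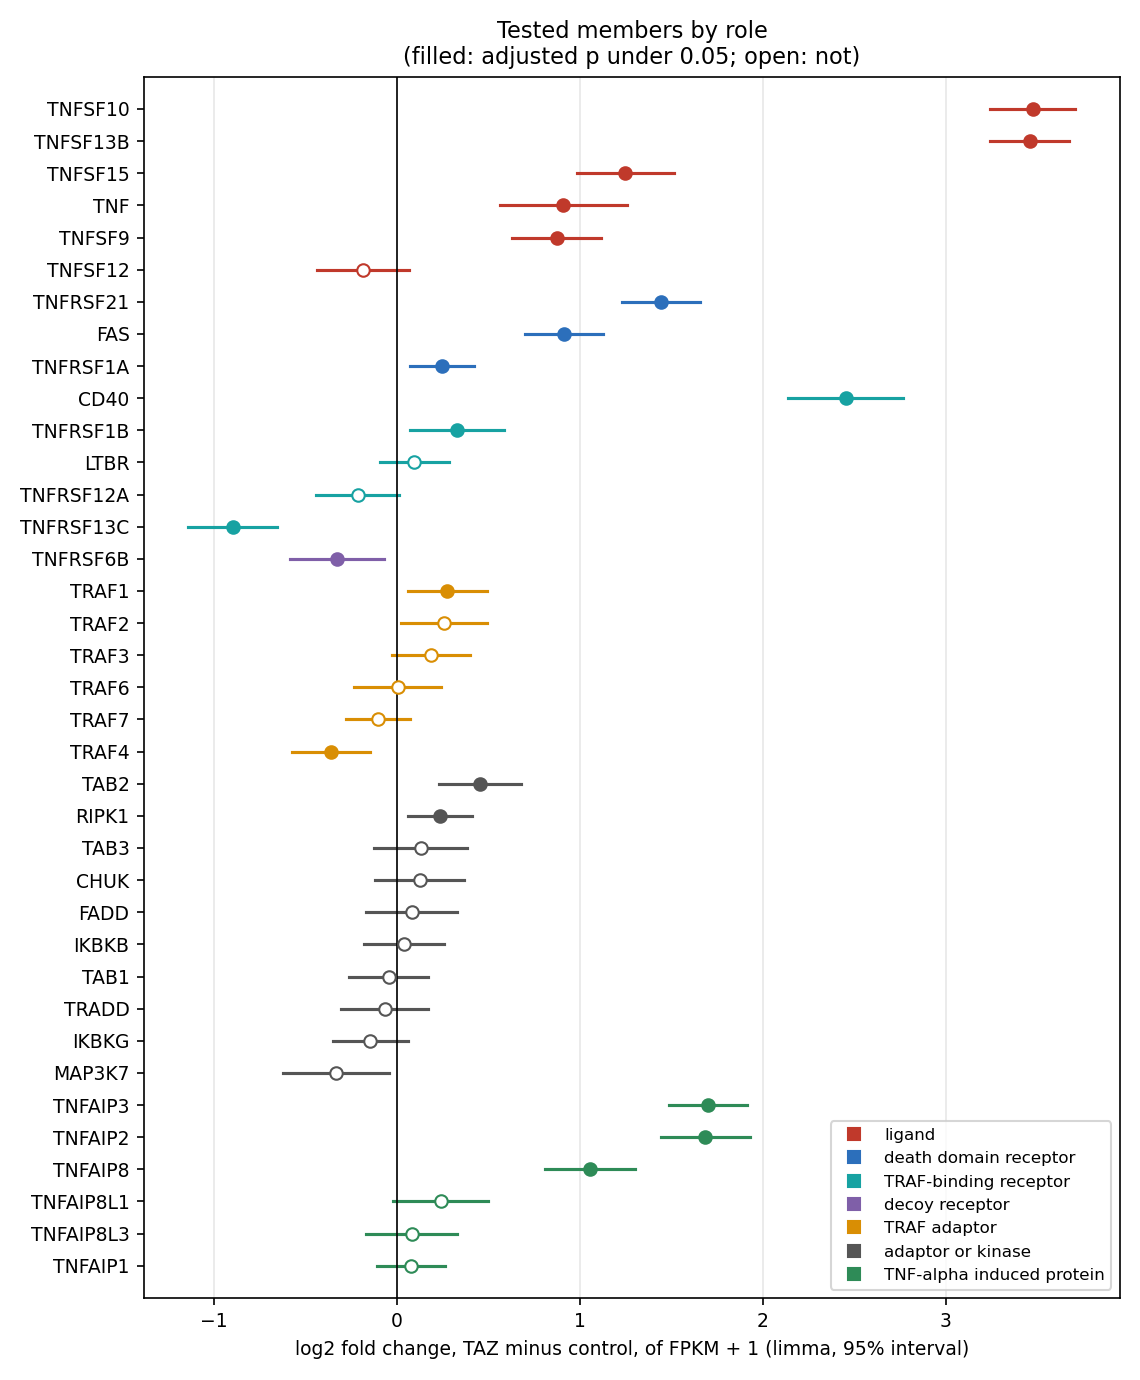
Log2 fold change (TAZ minus control, of FPKM + 1) of the 37 tested members by role, with limma's 95% interval for each gene, not adjusted for the number of genes. Filled points passed the adjusted threshold of 0.05. TNFSF10, TNFSF13B, CD40, TNFAIP3, TNFAIP2, TNFRSF21, TNFSF15 and TNFAIP8 reach furthest to the right. The ligand TNFSF12 lies left of 0, at -0.18. The adaptors and kinases run from -0.33 (MAP3K7) to 0.46 (TAB2).

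Of the 14 ligands, 5 rose and none fell, both among the 6 that passed the filter and with no filter, where 10.9% of all genes rose. TNF, TNFSF10, TNFSF13B and TNFSF15 passed the filter only through the TAZ libraries, so they had to differ there. Of the 5, 2 went from under 0.2 FPKM in every control to a mean above 10 FPKM. TNFSF10, which encodes TRAIL, a ligand that can trigger apoptosis, stood at 0, 0 and 0.0178 FPKM in the control libraries and 11.6, 10.4 and 8.75 FPKM in the TAZ libraries. Its control libraries held 0, 0 and 1 reads and its TAZ libraries 643, 640 and 526, so the groups were far apart. The read ratio was 1721, with an exact 95% interval from 309 to 68025 that covers counting error only (limma log2 fold change 3.48 with SE 0.108 and adjusted p = 2.46e-11). TNFSF13B, which encodes BAFF, a survival factor for B cells, stood at 0.151, 0.125 and 0.193 FPKM in the control libraries and 12.8, 10.7 and 11.7 FPKM in the TAZ libraries. That is a rise from 0.156 ± 0.0346 to 11.7 ± 1.08 FPKM, or 75.1 times the control level (limma log2 fold change 3.46 with SE 0.0994 and adjusted p = 1.05e-11). All of its controls were below 0.2 FPKM and all of its TAZ libraries above 10 FPKM.

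TNFSF15, which encodes TL1A, a ligand of death receptor 3, stood at 0.529, 0.419 and 0.969 FPKM in the control libraries and 2.84, 3.11 and 2.63 FPKM in the TAZ libraries. Every TAZ library was above the highest control, replicate 3, and the gene rose 4.48 times (limma log2 fold change 1.25 with SE 0.123 and adjusted p = 4.31e-06). TNF, the gene of TNF-α, remained a low gene at 0.424, 0.473 and 0.206 FPKM in the control libraries and 1.38, 2.46 and 1.04 FPKM in the TAZ libraries. TAZ replicate 2 was the highest and control replicate 3 the lowest, and the groups did not overlap. TNF rose 4.42 times by the ratio of means (limma log2 fold change 0.91 with SE 0.161 and adjusted p = 0.00068), from 64 reads in all controls to 300 in all TAZ libraries. TNFSF9, which encodes the 4-1BB ligand, a costimulator of T cells, stood at 6.5, 8.96 and 7.81 FPKM in the control libraries and 13.8, 16.0 and 15.1 FPKM in the TAZ libraries. Its groups did not overlap, and it rose 1.93 times (limma log2 fold change 0.87 with SE 0.112 and adjusted p = 4.74e-05).

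TNFSF12, which encodes TWEAK, was the most abundant ligand in both groups at 26.5 ± 2.84 against 23.3 ± 3.84 FPKM, and did not pass (adjusted p = 0.237). Its libraries spanned 23.5 to 29.1 FPKM in the controls and 20.9 to 27.7 FPKM with TAZ, so they overlapped. In the controls the next ligand in order was TNFSF9, and TNFSF15, TNF, TNFSF18, TNFSF4 and TNFSF13B lay below 1 FPKM. In the TAZ libraries TNFSF12 was followed by TNFSF9, TNFSF13B and TNFSF10. TNFSF13B and TNFSF10, at 11.7 ± 1.08 and 10.3 ± 1.43 FPKM, overlapped there and cannot be ranked. The ligands that rose are made by leukocytes in many tissues. PTPRC was at 0 in every library, CD14 rose from 9.58 ± 1.38 to 24.2 ± 0.421 FPKM, and CD68 fell from 4.53 ± 0.437 to 2.86 ± 0.333 FPKM. CD3E and CD79A, markers of T and B cells below the filter, stood at 0.598 and 0.215 FPKM in the controls and at 0.0769 and 0.0142 FPKM with TAZ. The part of other cell types in the rise of the ligands was not tested. In bulk RNA, more cells that express a gene and more RNA per cell cannot be told apart.

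**Figure D2:**
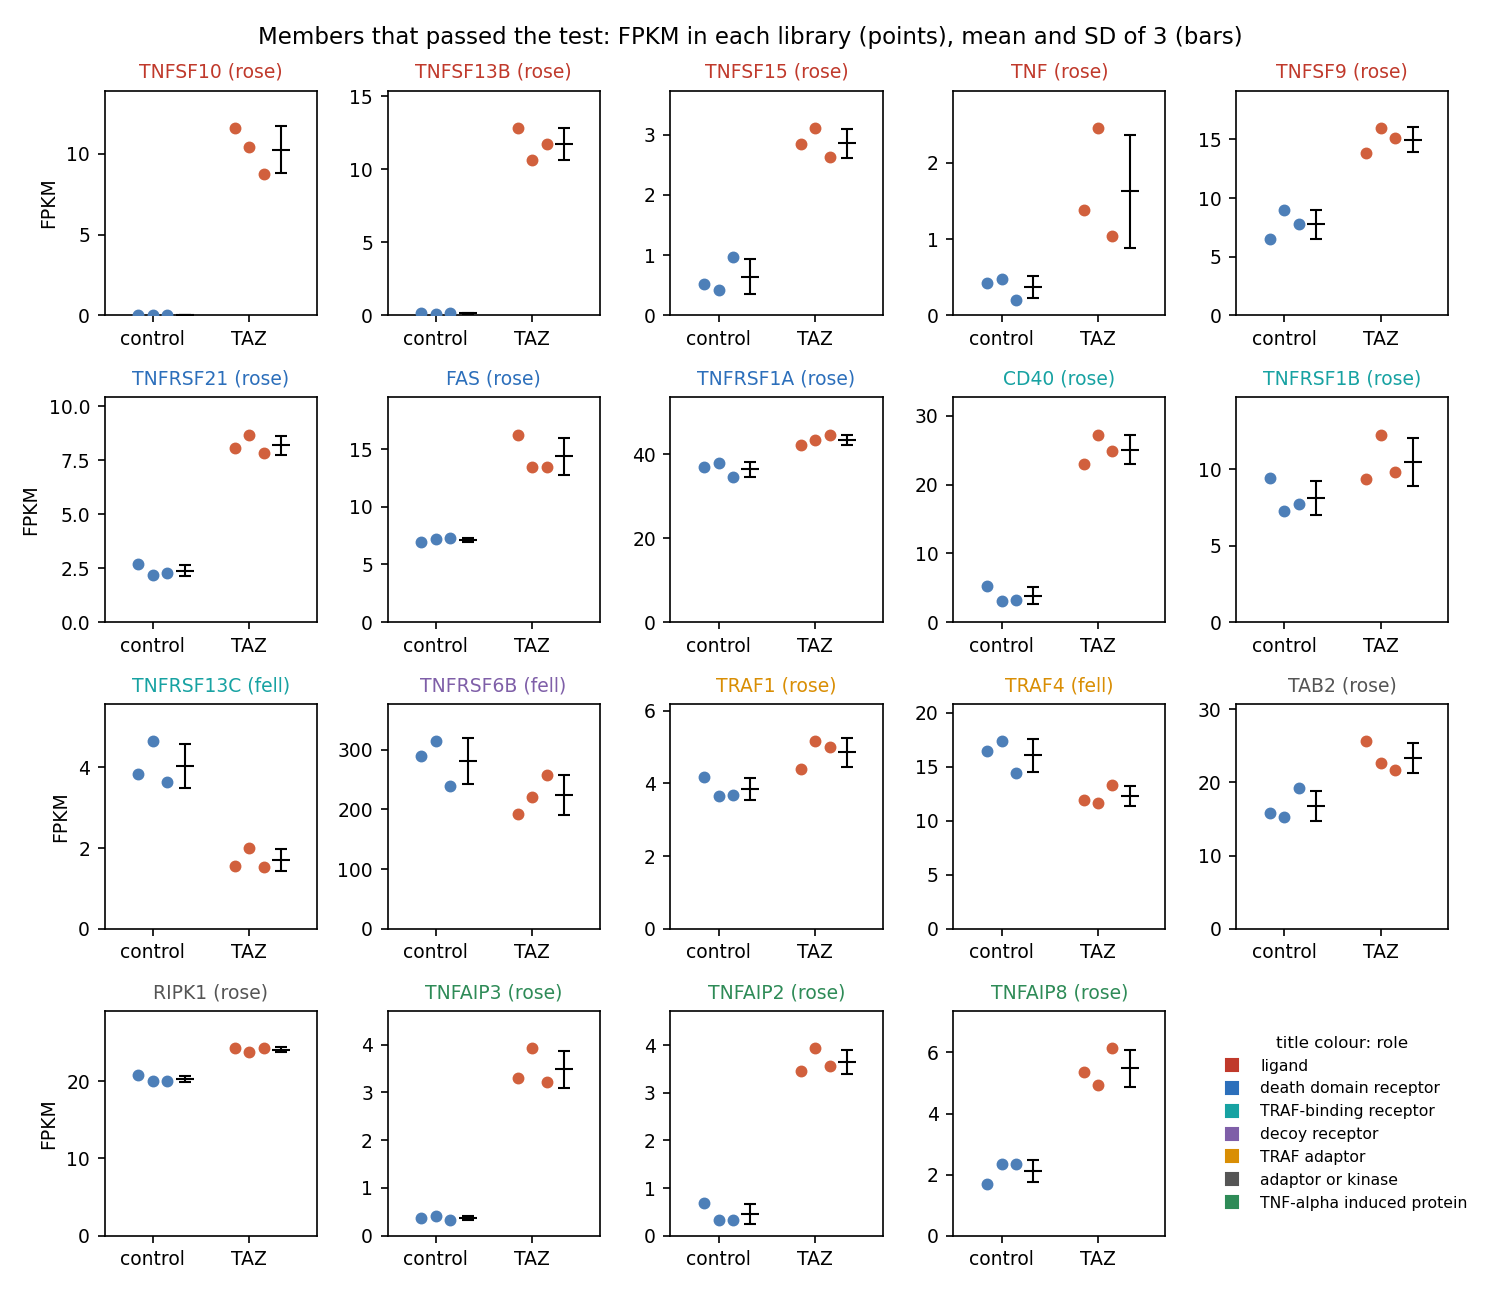
FPKM in each library for the 19 members that passed the test, with the mean and SD of 3 libraries beside the points, and 1 panel for each gene with its own linear axis from 0. Groups are separate in 17 panels, and TNFRSF1B and TNFRSF6B are the panels in which control and TAZ libraries overlap.

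All 3 death domain receptors that could be tested rose, against 15.7% of all tested genes, and the other 2 did not reach the filter. TNFRSF21, or death receptor 6, stood at 2.69, 2.18 and 2.29 FPKM in the control libraries and 8.08, 8.68 and 7.84 FPKM in the TAZ libraries. The groups were separate, and the gene rose 3.44 times (limma log2 fold change 1.44 with SE 0.0992 and adjusted p = 1.15e-07). FAS, the receptor through which FAS ligand induces apoptosis, stood at 6.92, 7.19 and 7.3 FPKM in the control libraries and 16.2, 13.4 and 13.5 FPKM in the TAZ libraries. Its controls lay within 0.4 FPKM of each other and below all TAZ libraries, of which replicate 1 was the highest (2.02 times, limma log2 fold change 0.91 with SE 0.0985 and adjusted p = 9.78e-06). FASLG, which encodes its ligand, had 1 read in each group.

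TNFRSF1A, the receptor TNFR1 that carries most TNF-α signals in non-immune cells, had a smaller ratio. It stood at 36.8, 38.0 and 34.5 FPKM in the control libraries and 42.2, 43.2 and 44.6 FPKM in the TAZ libraries, with no overlap, and rose 1.19 times (limma log2 fold change 0.25 with SE 0.0812 and adjusted p = 0.030). The call was lost in 5 of the 6 fits that left out 1 library (each except that without control replicate 2), at adjusted p-values of up to 0.116, and with the replicate number as a block, at an adjusted p of 0.115. In RefSeq's ARS1.2 annotation it shares bases with PLEKHG6, which was counted separately at 110 reads in all controls and 145 with TAZ, beside 9042 and 11319 for TNFRSF1A. TNFRSF25, or death receptor 3, was below the filter at 1.12 ± 0.232 against 0.801 ± 0.177 FPKM. Its libraries held 65 to 128 reads, and it leaned lower at 0.712 times the control level, without overlap. It did not pass in limma with no filter (adjusted p = 0.144). NGFR, the neurotrophin receptor p75, had 1 to 9 reads in each library.

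Apart from the decoy receptors, 5 receptors without a death domain were tested, of which 2 rose, 1 fell and 2 did not pass. For comparison, 15.7% of all tested genes rose and 22.1% fell. Of these receptors, CD40 had the largest ratio. CD40, best known for activating B cells and antigen-presenting cells and also made by stromal cells, stood at 5.24, 3.01 and 3.27 FPKM in the control libraries and 23.0, 27.3 and 24.9 FPKM in the TAZ libraries. Control replicate 1 was higher than the other two, yet every TAZ library was more than 4 times as high as any control. The gene rose from 3.84 ± 1.22 to 25.1 ± 2.12 FPKM, or 6.53 times (limma log2 fold change 2.45 with SE 0.145 and adjusted p = 2.48e-08). TNFRSF13C, which encodes the BAFF receptor, went the opposite way from its ligand TNFSF13B. It stood at 3.83, 4.64 and 3.63 FPKM in the control libraries and 1.56, 2.01 and 1.53 FPKM in the TAZ libraries, without overlap, and fell from 4.03 ± 0.534 to 1.7 ± 0.269 FPKM (limma log2 fold change -0.90 with SE 0.112 and adjusted p = 3.53e-05). The gene's controls held 156 to 195 reads and its TAZ libraries 66 to 94.

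TNFRSF1B, the second TNF-α receptor (TNFR2), stood at 9.4, 7.29 and 7.71 FPKM in the control libraries and 9.36, 12.3 and 9.84 FPKM in the TAZ libraries. TAZ replicate 1 lay just under control replicate 1, so the groups overlapped, and TAZ replicate 2 was the highest. Limma called it higher at 1.29 times (limma log2 fold change 0.33 with SE 0.119 and adjusted p = 0.0449), a call that held in 2 of the 6 fits that left out 1 library (without control replicate 1 and without TAZ replicate 1) and was lost without control replicates 2 or 3 or TAZ replicates 2 or 3, at adjusted p-values from 0.0595 to 0.194. It was also lost with no filter (0.117) and with quantile normalization (0.0546). TNFRSF12A, which encodes Fn14, the receptor of TWEAK, was among the most abundant members with 212, 200.2 and 165 FPKM in the control libraries and 147, 176 and 173 FPKM in the TAZ libraries. It did not pass, at 0.859 times the control level (adjusted p = 0.127), with a 95% interval of the log2 fold change from -0.44 to 0.01, and was called lower only without control replicate 3 (adjusted p = 0.0191). LTBR, the lymphotoxin beta receptor, stood at 45.2 ± 1.75 against 48.4 ± 3.94 FPKM and did not pass (adjusted p = 0.419), with an interval from -0.09 to 0.28. Its ligand genes LTA and LTB had 0 to 7 reads in each library.

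TNFRSF6B, which encodes decoy receptor 3, a soluble receptor that binds FASL, LIGHT and TL1A, had the highest level of all members in both groups. It stood at 289, 314 and 239 FPKM in the control libraries and 192, 221 and 258 FPKM in the TAZ libraries. TAZ replicate 3 lay above control replicate 3, so the groups overlapped, and the fall to 0.797 times the control level was close to the threshold (limma log2 fold change -0.33 with SE 0.12 and adjusted p = 0.0461). The call was lost in 9 of the 16 alternatives, among them 4 of the 6 that left out 1 library (control replicate 1 or 2, TAZ replicate 1 or 2), at adjusted p-values of up to 0.184. In RefSeq's annotation the gene lies between ARFRP1 and RTEL1 and shares bases with no other gene. The other decoy receptor, TNFRSF11B (osteoprotegerin), was listed at 0 in all 6 libraries, and its locus shares bases with a long noncoding RNA gene, LOC106502867. A level cannot be given for it.

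**Figure D3:**
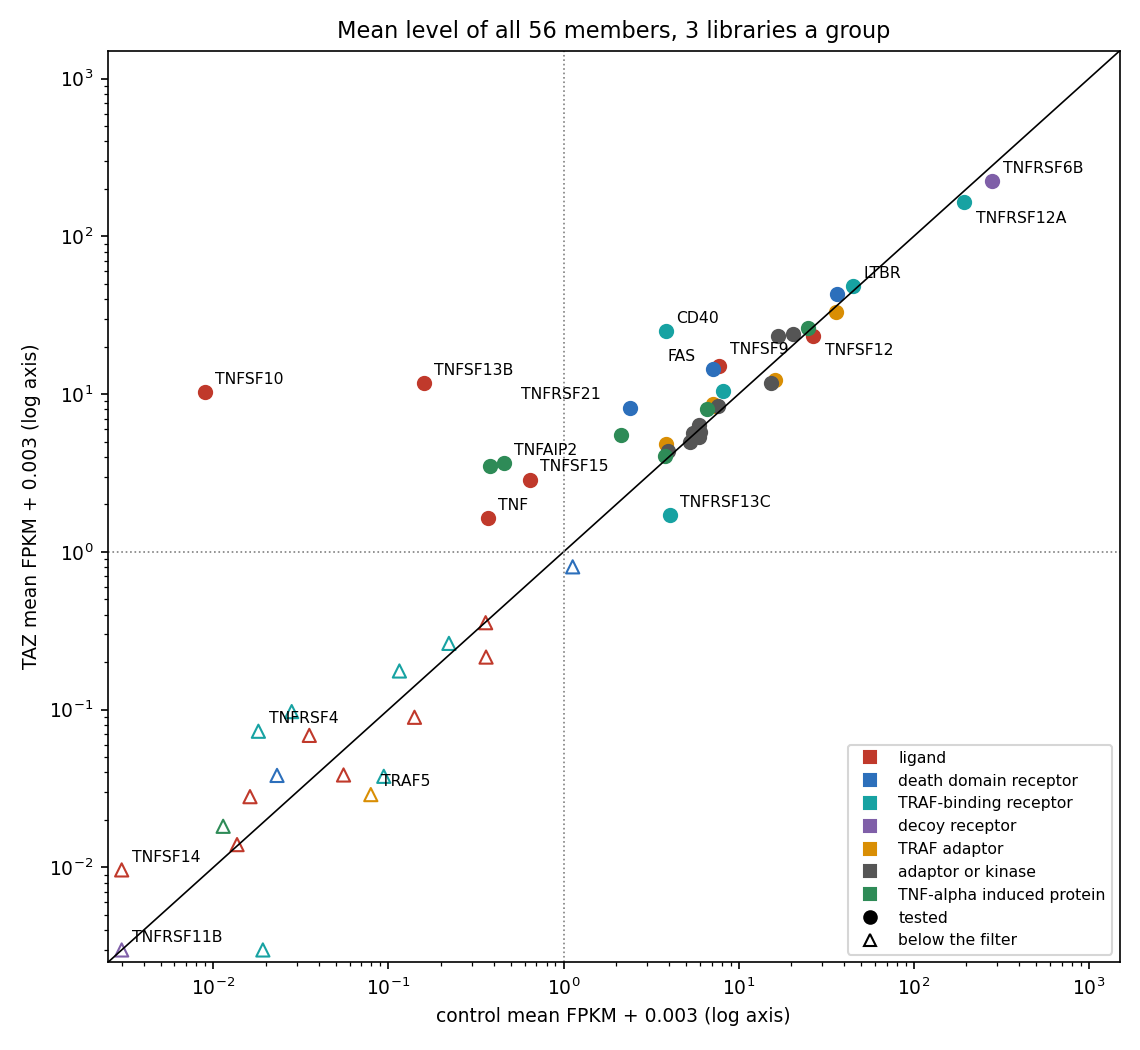
Mean FPKM of all 56 members in the controls (x) and in the TAZ libraries (y), with 0.003 added so that 0 can be drawn on log axes. Circles passed the filter and triangles did not, the line marks equal levels and dotted lines mark 1 FPKM. TNFSF10 and TNFSF13B lie far above the line, TNFRSF13C below it, and TNFRSF6B and TNFRSF12A at the upper end of both axes.

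Of the 6 tested TRAF adaptors, 1 rose, 1 fell and 4 did not pass, and all differences were small. These counts stand beside 15.7% of all tested genes that rose and 22.1% that fell. TRAF4, an atypical family member with roles in development and polarity, fell from 16.1 ± 1.52 to 12.3 ± 0.921 FPKM (limma log2 fold change -0.36 with SE 0.0986 and adjusted p = 0.0118). Its libraries stood at 16.5, 17.3 and 14.4 FPKM in the control libraries and 11.9, 11.6 and 13.3 FPKM in the TAZ libraries, without overlap, and the call was lost only without control replicate 2 (adjusted p = 0.052). TRAF1, which lacks the RING domain of the other TRAFs and is itself induced by NF-κB, stood at 4.19, 3.64 and 3.67 FPKM in the control libraries and 4.4, 5.15 and 5.0 FPKM in the TAZ libraries. It did not overlap and was 1.27 times as high (limma log2 fold change 0.28 with SE 0.0996 and adjusted p = 0.0444), but the call was lost in 4 of the 6 fits that left out 1 library (control replicate 2 or 3, TAZ replicate 2 or 3), at up to 0.141, with the replicate block, at 0.102, with no filter, at 0.0806, and with quantile normalization, at 0.0852.

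TRAF2, the adaptor that links TNF receptors to NF-κB and JNK signalling, stood at 8.25, 7.0 and 6.16 FPKM in the control libraries and 8.18, 8.81 and 9.06 FPKM in the TAZ libraries. Control replicate 1 overlapped the TAZ libraries, and the gene did not pass (limma log2 fold change 0.26 with SE 0.108 and adjusted p = 0.0779), although it was called higher without control replicate 1 (adjusted p = 0.0268) and with median-ratio scaling of the libraries (adjusted p = 0.0411). TRAF3, a brake on noncanonical NF-κB signalling, TRAF6, the adaptor of Toll-like and interleukin-1 receptors, and TRAF7 did not pass, at adjusted p-values of 0.156, 0.978 and 0.347. Their ratios were 1.15, 1.01 and 0.93. The 95% interval for TRAF6 ran from -0.23 to 0.24, which does not hold a 2-fold change. TRAF5 was below the filter with 6 to 13 reads in control and 2 to 5 reads in TAZ libraries.

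Most adaptors and kinases downstream of the receptors did not pass, with 2 of 10 that rose and none that fell. Among all tested genes, 15.7% rose and 22.1% fell. TAB2, the ubiquitin-binding partner of TAK1, rose from 16.8 ± 2.09 to 23.3 ± 2.02 FPKM (limma log2 fold change 0.46 with SE 0.104 and adjusted p = 0.00391). Single libraries stood at 15.8, 15.3 and 19.2 FPKM in the control libraries and 25.6, 22.6 and 21.7 FPKM in the TAZ libraries, without overlap. RIPK1, the kinase at the branch between NF-κB signalling and cell death, stood at 20.8, 20.1 and 20.1 FPKM in the control libraries and 24.3, 23.7 and 24.3 FPKM in the TAZ libraries. The gene had the smallest coefficient of variation of the 37 tested members in both groups, 2.16% in the controls and 1.3% with TAZ. It was 1.19 times as high (limma log2 fold change 0.24 with SE 0.0809 and adjusted p = 0.035), and this call was lost whichever library was left out, at adjusted p-values from 0.059 to 0.114, and with the replicate block, at 0.142.

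MAP3K7, which encodes the kinase TAK1, stood at 12.2, 15.2 and 18.3 FPKM in the control libraries and 13.5, 10.4 and 11.5 FPKM in the TAZ libraries. Control replicate 1 overlapped the TAZ libraries, and the gene did not pass at 0.775 times the control level (limma log2 fold change -0.33 with SE 0.134 and adjusted p = 0.0678). It was called lower without control replicate 1 (0.0109), without TAZ replicate 1 (0.0314) and with the replicate block (0.0353). The death domain adaptors TRADD and FADD were at 5.29 ± 0.638 against 5.0 ± 0.508 FPKM and 5.93 ± 0.648 against 6.35 ± 0.985 FPKM, with adjusted p-values of 0.666 and 0.618. TRADD stood at 5.69, 5.62 and 4.55 FPKM in the control libraries and 4.41, 5.34 and 5.23 FPKM in the TAZ libraries, and FADD at 6.66, 5.41 and 5.72 FPKM in the control libraries and 5.58, 7.46 and 6.0 FPKM in the TAZ libraries, so both overlapped widely. In RefSeq TRADD shares bases with FBXL8, which was counted separately and rose from 0.85 ± 0.16 to 1.68 ± 0.236 FPKM. The 95% intervals of TRADD and FADD ran from -0.30 to 0.17 and from -0.17 to 0.33. The IKK subunits CHUK, IKBKB and IKBKG had ratios of 1.1, 1.03 and 0.889, and TAB1 and TAB3 of 0.961 and 1.11. None of these 5 passed, at adjusted p-values from 0.252 to 0.788.

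Of the 7 TNF-α induced proteins, 3 rose and none fell, both among the 6 tested and with no filter. The shares of all genes were 15.7% higher and 22.1% lower among those tested, and 10.9% and 14.3% with no filter. TNFAIP2 and TNFAIP3 passed the filter only through the TAZ libraries, so they had to differ there. TNFAIP3, or A20, a ubiquitin-editing enzyme that dampens NF-κB signalling, stood at 0.372, 0.417 and 0.337 FPKM in the control libraries and 3.3, 3.92 and 3.21 FPKM in the TAZ libraries. Groups were separate, and the level rose 9.27 times (limma log2 fold change 1.7 with SE 0.0986 and adjusted p = 2e-08). TNFAIP2, a gene first found by its induction in endothelial cells given TNF-α, stood at 0.692, 0.338 and 0.331 FPKM in the control libraries and 3.47, 3.94 and 3.56 FPKM in the TAZ libraries. It rose 8.06 times (limma log2 fold change 1.69 with SE 0.113 and adjusted p = 8.56e-08), with control replicate 1 above the other controls. TNFAIP8, a regulator of apoptosis, stood at 1.71, 2.33 and 2.33 FPKM in the control libraries and 5.36, 4.94 and 6.14 FPKM in the TAZ libraries, again with no overlap, and rose 2.58 times (limma log2 fold change 1.06 with SE 0.114 and adjusted p = 1.04e-05). Its paralogs TNFAIP8L1 and TNFAIP8L3 did not pass, at 6.6 ± 0.592 against 8.03 ± 1.47 FPKM and 3.78 ± 0.654 against 4.04 ± 0.383 FPKM (adjusted p = 0.134 and 0.612). TNFAIP1, an adaptor of a ubiquitin ligase that carries the name for its induction by TNF-α, did not pass either, at 24.9 ± 0.998 against 26.3 ± 1.46 FPKM (adjusted p = 0.51).

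The 19 members below the filter held 0 to 128 reads in each library. In a fit of the reads with no filter (limma's voom), which called 28.7% of all genes above 0, 3 of them passed, and the same 3 passed in limma on log2(FPKM + 1) with no filter, which called 25.2%. TNFRSF4 (OX40), a costimulatory receptor of T cells, had 1, 1 and 4 reads in control and 11, 9 and 9 reads in TAZ libraries (4.6 times, voom adjusted p = 0.00641). TNFRSF8 (CD30) had 3, 2 and 2 reads in control and 5, 13 and 10 reads in TAZ libraries (3.81 times, voom adjusted p = 0.0204). TNFRSF11A, the receptor RANK of bone-resorbing cells, had 13, 10 and 17 reads in control and 5, 4 and 7 reads in TAZ libraries (0.381 times, voom adjusted p = 0.0328). All 3 had at most 17 reads in any library, their groups did not overlap, and their reads are given in full because they passed.

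The other members in this range did not pass either fit. Among the ligands, TNFSF18 (GITR ligand) had 18 to 53 reads in a library, TNFSF4 (OX40 ligand) 25 to 59 and TNFSF13 (APRIL) 6 to 15. TNFSF8 and TNFSF14 had at most 2 and 1 reads in a library. Among the receptors, TNFRSF19 had 28 to 58 reads and TNFRSF18 (GITR) 3 to 14. TNFRSF13B (TACI), another BAFF receptor, had 1 read in 1 control, and TNFAIP8L2 had 0 or 1 read. TNFSF18 had a read ratio of 0.587 with an exact interval from 0.438 to 0.783 for counting error only, and a voom adjusted p of 0.21. Where a library holds 0 reads, a level of up to 3 reads is allowed, and no fold is given for FASLG, TNFSF8, TNFSF14, TNFRSF13B or TNFAIP8L2.

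Known pairs of ligand and receptor are set side by side here. For BAFF, the ligand gene TNFSF13B rose and the receptor gene TNFRSF13C fell. For TL1A, TNFSF15 rose while TNFRSF25 was below the filter. For TWEAK, neither TNFSF12 nor TNFRSF12A passed. For FAS, the receptor rose and the ligand was at 1 read a group. TNFSF9 and TNFSF10 rose, and the expression tables had no row under the symbols of their main receptors, TNFRSF9, TNFRSF10A and TNFRSF10B. For TNF-α itself, the ligand rose 4.42 times, and TNFRSF1A and TNFRSF1B 1.19 and 1.29 times. Whether the members of a pair differed from each other was not tested.

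Several members are neighbours in the genome. In RefSeq's ARS1.2 gene order, TNF lies next to LTA and LTB, TNFSF15 next to TNFSF8, TNFSF12 next to TNFSF13, TNFRSF1B close to TNFRSF8, TNFRSF4 next to TNFRSF18, and FASLG and TNFSF4 on either side of TNFSF18. TNF rose while LTA and LTB stayed at 0 to 7 reads. TNFSF15 rose while TNFSF8 stayed at 0 to 2 reads, and TNFSF12 did not pass while TNFSF13 stayed at 6 to 15. TNFRSF4 and TNFRSF8 passed with no filter, TNFRSF1B passed, and TNFRSF18 did not. These are descriptions of 6 neighbourhoods, with no test.

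The rest of the TNF receptor pathway, a list of 58 genes of which 57 were in the tables and 55 were tested, changed mostly upward. Of these, 25 rose, 4 fell and 26 did not pass, so 52.7% were called beside 37.9% of all tested genes, with a median log2 fold change of 0.21. Over all tested genes, 15.7% were higher and 22.1% lower. The list was chosen with earlier results of these data known, so its counts are a description. ZBP1, a sensor of nucleic acids that can start necroptosis, rose from 0.0218 ± 0.00973 to 32.1 ± 1.67 FPKM (limma log2 fold change 5.02 with SE 0.0927 and adjusted p = 1.94e-13). It was under 1 FPKM in every control and passed the filter only through the TAZ libraries, so it had to differ there. TNIP1, which works with A20 to restrain NF-κB, rose from 31.7 ± 4.55 to 124 ± 20.3 FPKM (limma log2 fold change 1.93 with SE 0.124 and adjusted p = 5.97e-08), and NFKB1, which encodes the p105 and p50 forms of NF-κB, from 13.6 ± 1.18 to 32.4 ± 0.921 FPKM (limma log2 fold change 1.2 with SE 0.0902 and adjusted p = 2.96e-07). PEA15, a death effector domain protein, fell from 137 ± 2.88 to 104 ± 7.25 FPKM (limma log2 fold change -0.39 with SE 0.0812 and adjusted p = 0.00206), MAP2K4, a kinase that activates JNK, from 12.8 ± 0.933 to 9.45 ± 0.618 FPKM, and TRAF3IP1, a cilium protein that binds TRAF3, from 5.19 ± 0.124 to 3.95 ± 0.271 FPKM.

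By subgroup, 5 of 7 genes of NF-κB and its inhibitors rose, 3 of 4 genes of ligand shedding, 3 of 6 ubiquitin ligases and LUBAC subunits, 3 of 7 deubiquitinases and ubiquitin binders, 2 of 3 necroptosis genes and 5 of 11 kinases. None of the first 5 subgroups had a member that fell, and 1 kinase did. Among 5 TRAF regulators, 1 rose and 1 fell. These subgroups are small and were not tested as sets, and 15.7% of all tested genes rose. In the whole list, the number that fell was 2 without TAZ replicate 1 and 7 without control replicate 3.

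**Figure D4:**
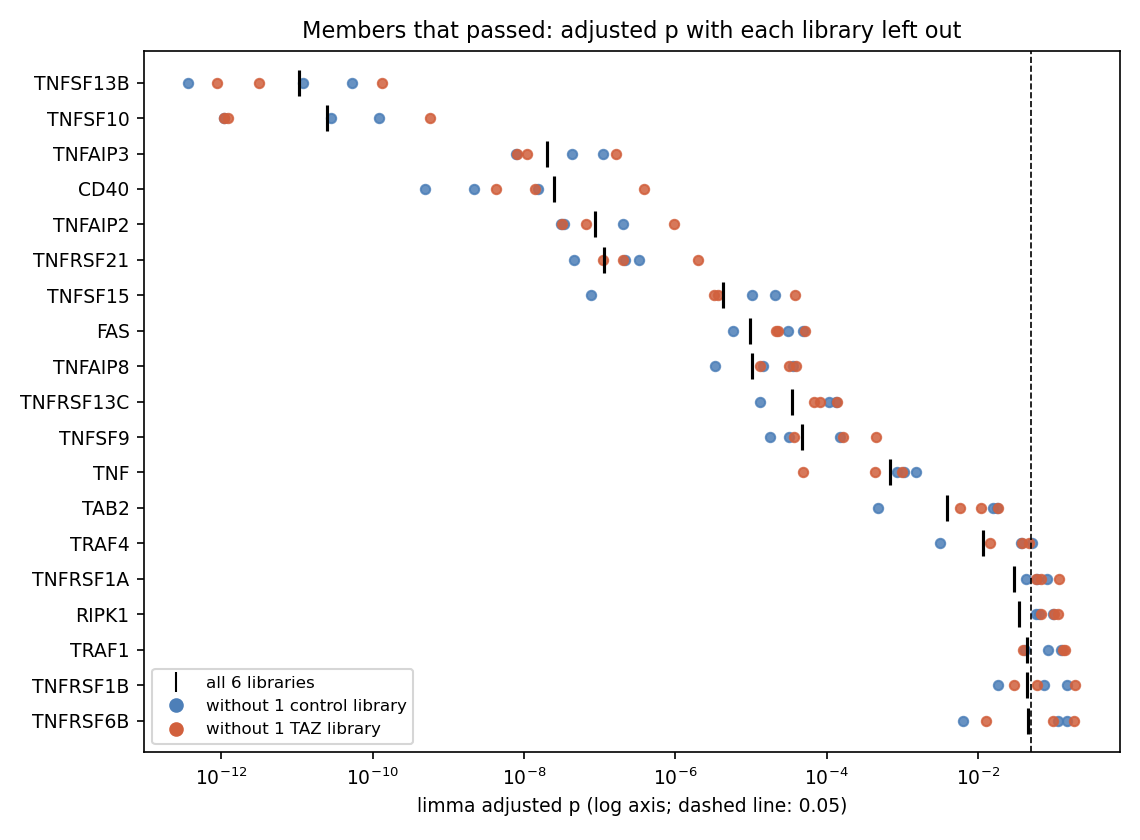
Limma adjusted p (log axis) of the 19 members that passed, with all 6 libraries (black bars) and with 1 library left out (points, 6 for each gene). All points of the upper 13 genes, from TNFSF13B to TAB2, lie left of the dashed line at 0.05, and the lower 6 genes have points on both sides or to the right of it.

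Of the 19 calls, 13 held in every alternative in which the gene was tested, and 6 were lost in at least 1. The 13 were TNFSF10, TNFSF13B, TNFSF15, TNF, TNFSF9, TNFRSF21, FAS, CD40, TNFRSF13C, TAB2, TNFAIP2, TNFAIP3 and TNFAIP8. The plot of adjusted p with each library left out also shows the rest, TNFRSF1A, TNFRSF1B, TNFRSF6B, TRAF1, TRAF4 and RIPK1, all with a log2 fold change below 0.4 in size. Among the 18 tested members that did not pass, 3 were called in at least 1 alternative, namely MAP3K7, TNFRSF12A and TRAF2.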

How the data were processed

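Libraries were made from total RNA taken up in TRIzol, with the VAHTS Universal V6 kit, per the labels' protocols. The submitters' processing notes name fastp, HISAT2 and HTSeq and give no versions. Strand setting, build and the handling of multiply mapped reads were not given in the sources used here. Coordinates are therefore left out. The authors deposited FPKM values, per the file headers, in 1 table per group with the same 16285 rows, of which 23 had a date for a symbol and were left out. All other symbols were in RefSeq's ARS1.2 table, used for names and gene order only.

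Low FPKM values are whole multiples of what 1 read is worth, so library totals and read numbers were recovered for 99.99% of rows above 0 (whole within 0.02, the shortest length that fits). This length equalled RefSeq's whole gene length, which only genes of a single exon can match, for 325 of 16020 genes, against 2 genes at 2 times the recovered length and 0 at 0.5 times. Whether the authors counted mates or parts of fragments was not given, so a read number may hold both mates of a pair. Exact intervals are then too narrow, and intervals and the limit of 3 reads for a count of 0 cover counting error only. A gene seen in 1 library may hold more reads than given.

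Limma 3.58.1 in R 4.3.3 (empirical Bayes with a mean-variance trend, two-sided) compared log2(FPKM + 1) of genes with 1 FPKM or more in at least 3 of 6 libraries, with Benjamini-Hochberg adjustment over all 10750, and was tested on simulated data. No label states that the replicates are separate cultures, so a p-value reflects only the spread of these libraries, which may be technical, and no label names a batch. The alternatives left out each library, used the replicate number as a block, changed the pseudocount (0.1, 0.5), the filter (none, or a mean of 5 FPKM), the scaling (median-ratio, quantile) or the fit (no trend, robust), or ran voom on the reads. Voom without a filter was added after seeing the data. The members and lists were chosen with earlier results of these data known. Single-library values are given for all called members and a fixed set of central genes, and group means for the 3 pathway genes that rose and the 3 that fell with the lowest adjusted p. Sequences were not used here. One gene of the pathway list is counted but not reported here.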

Additional observations from a re-analysis of the deposited data

How the results depend on the processing

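The 16 members that rose numbered 12 to 15 when 1 library was left out and 13 to 17 under the other settings, except 10 with the stricter filter of a mean of 5 FPKM, which tested 28 members in place of 37. The 3 that fell numbered 1 to 4 with 1 library left out and 1 with the stricter filter. Of the other pathway genes, 4 fell with all libraries, 2 to 7 with 1 left out and 2 with the stricter filter, and the number that rose stayed between 22 and 26. With 1 library left out, the log2 fold change of TRADD ran from -0.154 to 0.00495, above 0 without TAZ replicate 1, and that of FADD from -0.0252 to 0.156, below 0 without TAZ replicate 2. FASLG, below the filter, turned to -0.0821 with voom. None of these 3 passed in any fit. The cause was not tested. Libraries with the same replicate number did not deviate together (r from -0.436 to -0.112 in 3 pairs, and 0 of 3 controls correlated best with its own number), so the numbers do not pair the samples. Some libraries with different numbers did. Control replicate 3 went with TAZ replicate 1 (r = 0.691), and control replicate 2 with TAZ replicate 3 (r = 0.552). Control replicate 1 went with TAZ replicate 2 (r = 0.534), and the remaining pairs with different numbers had r from -0.376 to -0.086. The replicate block does not follow these pairs, and what they share was not tested. With the replicate block 13 members rose and 4 fell. Over all genes 1693 rose and 2381 fell, against 2030 and 1784 with median-ratio scaling, which turned the balance, and 1548 and 1964 with the replicate block. For genes under about 1 FPKM in a group, folds depend on the scale, because adding 1 FPKM before the log shrinks them. TNFSF10 was 3.48 on log2(FPKM + 1) and 9.63 with voom, and TNF 0.91 and 2.12.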

Other observations

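Some genes of the same superfamily carry symbols that the choice of members did not cover, and 5 of them, picked after the members' values were seen, were in the tables. All were below the filter. RELT, an orphan receptor gene, had the highest level, at 1.01, 0.788 and 0.682 FPKM in the control libraries and 0.71, 0.91 and 0.901 FPKM in the TAZ libraries, and its groups overlapped (voom adjusted p = 0.912). EDA2R, a receptor of ectodysplasin, had 8 reads in all controls and 14 with TAZ, and EDA, the ectodysplasin gene, 7 and 1. EDA was called by voom with no filter (adjusted p = 0.0347) but not by limma on log2(FPKM + 1) with no filter (adjusted p = 0.319). CD40LG, which encodes the ligand of CD40, had 1 read in all 6 libraries, and CD70, the ligand of CD27, had 2.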
